A study of Arabidopsis thaliana with 16 samples.

Results

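The transcriptome of warm-treated Arabidopsis thaliana seedlings was examined for genes at which loss of the histone readers MRG1 and MRG2 and mutation of PIF4 did not combine additively. For each gene the departure was the log2 level of the triple mutant mrg1 mrg2 pif4, less those of both parents (mrg1 mrg2 and pif4), plus that of WT, all at 28 °C. A departure of 0 means that the mutant effects add up in log2. The deposited table lists 33602 genes, and the 19556 that passed a filter on low counts were all tested. RNA was sequenced from whole Col-0 seedlings of day 6, grown at 22 °C on plates in constant white light and then kept at 28 °C for 3 h. The groups, with 2 libraries each, were the triple mutant mrg1 mrg2 pif4, the double mutant mrg1 mrg2, the single mutant pif4 and WT. The 8 other libraries, of the same 4 genotypes kept at 22 °C, served to ask whether a departure was also present without the warm treatment. The labels name no alleles or number of lines, nor say if libraries of 1 group stem from different plates, so p-values measure only the spread between these libraries. Library totals at 28 °C ran from 7186066 to 11363353 counts, and a floor of 3 counts in a library corresponded to 0.264 to 0.417 CPM (a gene's counts scaled to a common library total).

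PIF4 is a basic helix-loop-helix transcription factor that binds E-box motifs such as the G-box and drives auxin synthesis and elongation growth in warm or shaded seedlings. MRG1 and MRG2 are a pair of chromodomain readers of histone H3 methylation at active genes and work with histone acetyltransferases. In genetics, a gene at which the double and the single mutant differ from WT by amounts that sum to the change in the triple mutant is additive on that scale, and a departure means that the effect of one mutation depends on the presence of the other.

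The mutated genes were read first. MRG1 (AT4G37280) stood at 3.07 and 4.19 CPM in mrg1 mrg2 pif4, 4.64 and 4.89 CPM in mrg1 mrg2, 23.0 and 28.0 CPM in pif4, and 24.9 and 28.3 CPM in WT. MRG2 (AT1G02740) had 3 and 4 reads in mrg1 mrg2 pif4, 6 and 5 in mrg1 mrg2, 78 and 71 in pif4, and 81 and 63 in WT. Both genes were therefore low in every library that carries the mrg1 mrg2 label and in no other. PIF4 (AT2G43010) stood at 81.9 and 84.7 CPM in mrg1 mrg2 pif4, 109 and 100.2 CPM in mrg1 mrg2, 78.3 and 77.2 CPM in pif4, and 94.3 and 86.4 CPM in WT. The 4 libraries that carry the pif4 label lay below the 4 others, by a small margin. PIF4 fell between mrg1 mrg2 pif4 and mrg1 mrg2 (log2 difference -0.33, adjusted p = 0.00382), while the difference of -0.22 between pif4 and WT did not pass the test (adjusted p = 0.215). As most of the transcript is present in every library, these counts are a weak check of the pif4 label. The departures of the 3 genes were -0.30 ± 0.25 for MRG1, -0.52 ± 0.68 for MRG2 and -0.11 ± 0.10 for PIF4, with adjusted p of 0.647, 0.798 and 0.695. Here and below ± after a log2 value is a standard error, computed by dividing the size of the value by the root of its edgeR quasi-likelihood F.

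Because PIF4 binds E-box motifs, 4 promoters of genes that departed from additivity are shown, a pair from each direction, as examples of upstream windows that hold a G-box or a PBE-box (the related PIF-binding E-box). Each is the 250 bases before the annotated gene start in RefSeq TAIR10.1, 5′ to 3′ on the strand of the gene, with the motif in capitals. They lie at chr3:17441432-17441681 (minus strand) for ASN1, chr1:24256804-24257053 (plus strand) for XTH17, chr3:10255656-10255905 (plus strand) for LHCB2.3 and chr5:17166033-17166282 (minus strand) for DFR.
ASN1: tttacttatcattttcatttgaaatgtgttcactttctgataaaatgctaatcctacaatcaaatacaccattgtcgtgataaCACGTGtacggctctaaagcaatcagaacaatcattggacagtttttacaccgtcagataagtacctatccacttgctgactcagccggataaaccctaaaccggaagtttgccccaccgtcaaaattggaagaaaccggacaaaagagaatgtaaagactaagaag
XTH17: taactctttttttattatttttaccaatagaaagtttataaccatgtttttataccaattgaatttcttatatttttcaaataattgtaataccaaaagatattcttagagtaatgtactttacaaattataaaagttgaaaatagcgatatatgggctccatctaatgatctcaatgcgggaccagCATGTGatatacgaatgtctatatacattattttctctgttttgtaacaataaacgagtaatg
LHCB2.3: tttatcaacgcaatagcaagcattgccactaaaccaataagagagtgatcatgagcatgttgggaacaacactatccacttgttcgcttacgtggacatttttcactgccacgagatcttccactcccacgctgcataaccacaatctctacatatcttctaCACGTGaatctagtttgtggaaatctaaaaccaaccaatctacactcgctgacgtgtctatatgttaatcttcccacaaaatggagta
DFR: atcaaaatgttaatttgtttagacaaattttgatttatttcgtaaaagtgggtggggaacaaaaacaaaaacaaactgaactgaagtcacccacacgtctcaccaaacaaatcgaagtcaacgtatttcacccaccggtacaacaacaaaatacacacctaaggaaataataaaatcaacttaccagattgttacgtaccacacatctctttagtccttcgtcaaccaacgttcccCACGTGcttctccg
ASN1, LHCB2.3 and DFR hold a G-box (CACGTG, the same on both strands) that begins at positions -167, -88 and -14 from the gene start. XTH17 holds a PBE-box (CACATG, here as its reverse complement CATGTG) that begins at position -63. Over all windows, a G-box stood in 11 of 186 windows (5.91%) of genes above additivity, in 34 of 349 (9.74%) of genes below it and in 1444 of 19413 (7.44%) of all genes tested that have a nuclear RefSeq entry. A PBE-box stood in 32 (17.2%), 46 (13.2%) and 2157 (11.1%) of the same windows. These shares describe letters in a short window, no test was made of them, and binding of PIF4 to these windows was not measured here.

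Departure from additivity was called for 548 genes, 2.8% of those tested, at an adjusted p under 0.05. The triple mutant lay above the additive level at 186 genes (0.951%) and below it at 362 (1.85%), while the median departure of all genes tested was 0.00221. Called genes departed by a median of 0.559 in size, and 49 of them lay at least 2-fold above and 52 at least 2-fold below additivity. DESeq2 called 102 above and 255 below, and 93 and 223 without its independent filtering, a step that gives genes of low mean count no adjusted p. No called gene had a departure of the other sign when the sum was taken on CPM instead of log2 CPM. Fewer genes were called when a library was left out: 92 above and 170 below without mrg1 mrg2 pif4 replicate 2, 95 and 189 without mrg1 mrg2 pif4 replicate 1, and 118 and 210 without WT replicate 2. Without pif4 replicate 1 the count below was 236.

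The departure is also the difference between the pif4 effect measured in mrg1 mrg2 and the pif4 effect measured in WT, and these 2 effects share no library. Between mrg1 mrg2 pif4 and mrg1 mrg2, 1654 genes (8.46%) changed, against 237 (1.21%) between pif4 and WT. Of the genes above additivity, 150 changed with pif4 within mrg1 mrg2 and were not called within WT, 8 showed the reverse, 7 changed in both and 21 in neither. Of the genes below additivity the corresponding counts were 251, 51, 25 and 35. Both effects passed the test with opposite signs at 4 genes above and 18 genes below additivity. The smaller counts rest on single libraries: without WT replicate 2, 103 genes were called between pif4 and WT, without WT replicate 1, 135, without pif4 replicate 1, 148, and without pif4 replicate 2, 122. Between mrg1 mrg2 pif4 and mrg1 mrg2 the count was 962 with DESeq2, 878 without mrg1 mrg2 pif4 replicate 1, 761 without mrg1 mrg2 pif4 replicate 2, 1069 without mrg1 mrg2 replicate 1 and 1062 without mrg1 mrg2 replicate 2.

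**Figure D1:**
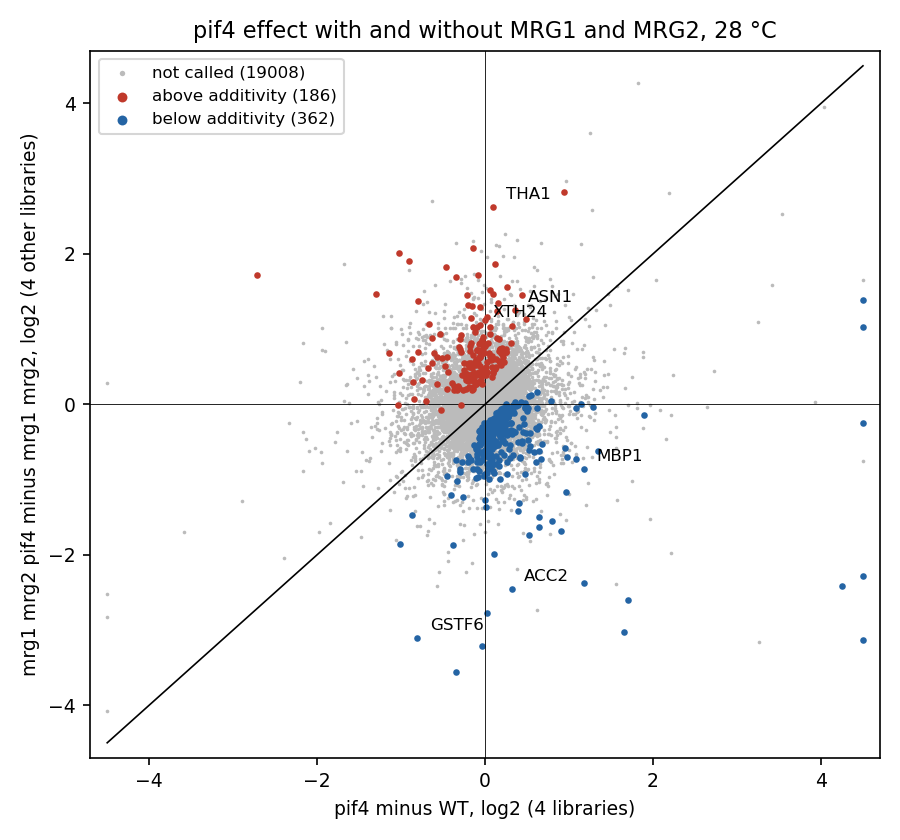
The pif4 effect at 28 °C in each of 19556 genes, measured within mrg1 mrg2 (vertical axis, log2) and within WT (horizontal axis, log2). The diagonal marks additivity. The 186 genes called above it (red) and 362 called below it (blue) spread mostly along the vertical axis, and the 11 genes beyond ±4.5 are drawn at the edge.

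A description of the 4 levels shows the shape of most departures. For each gene the genotype was found whose removal left the other 3 group means closest together on the log2 scale. That genotype was mrg1 mrg2 at 289 of the 548 called genes (52.7%), mrg1 mrg2 pif4 at 147 (26.8%), pif4 at 67 (12.2%) and WT at 45 (8.21%). Over all genes tested the shares were 31.3%, 25.9%, 20.1% and 22.7%. By direction, mrg1 mrg2 stood apart at 130 of the 186 genes above additivity. Of the 362 genes below, it stood apart at 159, mrg1 mrg2 pif4 at 116, pif4 at 57 and WT at 30, so that there the 3 other genotypes together outnumbered it. The double mutant therefore stood apart more often among called genes than among all genes. Its share ranged from 47.9% to 54.9% among the genes called as each library was left out. In that range the genotype apart was kept from the means of all libraries, so only the set of called genes changed. Whether the genotype apart itself holds without a library was not tested. Between mrg1 mrg2 and WT, 2487 genes (12.7%) changed, between mrg1 mrg2 pif4 and pif4, 1600 (8.18%), and between mrg1 mrg2 pif4 and WT, 2089 (10.7%). DESeq2 gave 1338 and 860 for the first and the second of these counts. The first was 1299 without WT replicate 2, 1507 without mrg1 mrg2 replicate 2 and 1631 without mrg1 mrg2 replicate 1. The second was 741 without mrg1 mrg2 pif4 replicate 1, 789 without mrg1 mrg2 pif4 replicate 2, 977 without pif4 replicate 1 and 843 without pif4 replicate 2. Of the 548 called genes, 103 above and 157 below additivity changed between mrg1 mrg2 and WT and were not called between mrg1 mrg2 pif4 and WT. A missed call does not show that the triple mutant equals WT.

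Of the 8 genes above additivity with the smallest p-values among those with at least 10 reads in every library, 6 had mrg1 mrg2 apart, while mrg1 mrg2 pif4 stood apart at ASN1 and WT at XTH15. XTH24 (AT4G30270, chr4:14819192-14820595), which encodes a xyloglucan endotransglucosylase that cuts and rejoins cell wall xyloglucan, stood at 329 and 299 CPM in mrg1 mrg2 pif4, 148 and 155 CPM in mrg1 mrg2, 275 and 269.9 CPM in pif4, and 293 and 275 CPM in WT. Only the double mutant was low, and its 2 libraries did not overlap any other. The departure was 1.11 ± 0.09 (adjusted p = 3.72e-09), so that mrg1 mrg2 pif4, at 314 ± 21.4 CPM (SD, n = 2), stood at 2.16 times the 145 CPM expected under additivity. MIOX2 (AT2G19800), a myo-inositol oxygenase that supplies wall sugar precursors, was likewise lowest in mrg1 mrg2, with 68.0 and 71.0 CPM in mrg1 mrg2 pif4, 28.4 and 26.2 CPM in mrg1 mrg2, 58.9 and 54.5 CPM in pif4, and 51.5 and 50.3 CPM in WT. Its departure was 1.19 ± 0.12 (adjusted p = 7.4e-07). The papain-type protease gene AT4G11320 and GASA1 (AT1G75750), which encodes a small gibberellin-responsive peptide, were again low in the double mutant only. AT4G11320 held 285 and 299.8 CPM in mrg1 mrg2 pif4, 159 and 174 CPM in mrg1 mrg2, 271 and 274 CPM in pif4, and 287 and 280.1 CPM in WT. For GASA1 the departure was 0.77 ± 0.09 (adjusted p = 4.13e-06).

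THA1 (AT1G08630), which encodes a threonine aldolase of amino acid breakdown, departed further. Its levels were 30.5 and 33.1 CPM in mrg1 mrg2 pif4, 6.16 and 3.98 CPM in mrg1 mrg2, 13.5 and 15.5 CPM in pif4, and 14.2 and 12.7 CPM in WT. Here the double mutant lay below WT and the triple mutant above it, by 1.24 on the log2 scale (adjusted p = 1.6e-06), while pif4 and WT overlapped. The departure of 2.52 ± 0.23 (adjusted p = 1.2e-07) put the triple mutant at 5.75 times the additive level. A departure of at least 2-fold with low expression was also called for the peroxidase gene AT2G39040 (2.81 ± 0.44), GAT1_2.1 (AT1G15040), a glutamine amidotransferase-like gene (2.29 ± 0.40), AGP30 (AT2G33790), an arabinogalactan protein gene (2.22 ± 0.34), and the glyoxal oxidase-related gene AT1G19900 (1.75 ± 0.31). All 4 were lowest in mrg1 mrg2, between 1.14 and 2.84 CPM. BCB (AT5G20230), a blue copper-binding protein gene, stood at 10.13 and 12.4 CPM in mrg1 mrg2 pif4, 1.69 and 1.48 CPM in mrg1 mrg2, 4.79 and 4.39 CPM in pif4, and 2.58 and 2.17 CPM in WT. Its departure of 1.87 ± 0.42 (adjusted p = 0.0111) was not called without WT replicate 1 (adjusted p = 0.0922) or without mrg1 mrg2 pif4 replicate 2 (0.0701).

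CSD2 (AT2G28190), the chloroplast copper/zinc superoxide dismutase, and XTH15 (AT4G14130) were lower in each parental mutant than in WT. XTH15 stood at 37.2 and 37.5 CPM in mrg1 mrg2 pif4, 26.4 and 24.7 CPM in mrg1 mrg2, 26.4 and 31.2 CPM in pif4, and 45.0 and 44.2 CPM in WT. It fell with mrg1 mrg2 within WT by 0.80 (adjusted p = 3.7e-06) and with pif4 within WT by 0.64 (adjusted p = 0.000502; 0.00154 by DESeq2 without independent filtering), yet the triple mutant lay above both parents. The departure was 1.18 ± 0.14 (adjusted p = 7.48e-06), since 16.5 CPM was the level expected. CSD2 stood at 23.4 and 24.2 CPM in mrg1 mrg2 pif4, 13.2 and 11.6 CPM in mrg1 mrg2, 19.4 and 19.1 CPM in pif4, and 26.6 and 29.3 CPM in WT, with a departure of 1.48 ± 0.17 (adjusted p = 4.93e-06).

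Below additivity the double mutant stood far above the other genotypes at ACC2 and AT3G15356, which had the smallest p-values after MRD1, a gene of few reads described further on. ACC2 (AT1G36180, chr1:13545965-13558600), an acetyl-CoA carboxylase of fatty acid synthesis, stood at 11.5 and 12.3 CPM in mrg1 mrg2 pif4, 68.9 and 62.3 CPM in mrg1 mrg2, 13.0 and 14.97 CPM in pif4, and 9.38 and 13.1 CPM in WT. The other 3 genotypes overlapped or nearly so, and the departure was -2.78 ± 0.19 (adjusted p = 5.99e-10), which put the triple mutant at 0.146 times the additive level. ACC2 has a near-identical tandem copy, ACC1, and reads shared by both cannot be traced here. AT3G15356, a legume lectin gene, stood at 34.6 and 32.9 CPM in mrg1 mrg2 pif4, 86.8 and 80.1 CPM in mrg1 mrg2, 36.3 and 37.8 CPM in pif4, and 27.7 and 28.3 CPM in WT, a departure of -1.71 ± 0.13 (adjusted p = 1.54e-09). Single genes with annotated roles in defence or detoxification were among those called, although the salicylic acid defence list held 0 calls of 11 genes and the detoxification list 2 of 11. GSTF6 (AT1G02930), a glutathione transferase gene, stood at 5.58 and 5.67 CPM in mrg1 mrg2 pif4, 53.9 and 43.1 CPM in mrg1 mrg2, 6.32 and 4.67 CPM in pif4, and 11.3 and 8.09 CPM in WT. Its departure was -2.30 ± 0.26 (adjusted p = 2.77e-06), and that of its near-identical neighbour GSTF7 (AT1G02920) was -1.49 ± 0.24 (adjusted p = 0.000382). PR4 (AT3G04720), a chitin-binding defence gene, departed by -1.13 ± 0.12 (adjusted p = 1.08e-06), AT4G16260, a glycosyl hydrolase gene, by -1.21 ± 0.13 (1.81e-06), and PAD3 (AT3G26830), the cytochrome P450 of camalexin synthesis, by -2.10 ± 0.42 (0.00365).

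The other shapes were also found below additivity. GSTU20 (AT1G78370), another glutathione transferase gene, was lowest in the triple mutant, with 64.9 and 69.2 CPM in mrg1 mrg2 pif4, 126 and 133 CPM in mrg1 mrg2, 105 and 103 CPM in pif4, and 110.4 and 98.8 CPM in WT (departure -0.94 ± 0.10, adjusted p = 1.81e-06). PGL5 (AT5G24420), a 6-phosphogluconolactonase gene of the pentose phosphate pathway, was high in pif4 only. It stood at 8.08 and 6.89 CPM in mrg1 mrg2 pif4, 12.1 and 9.998 CPM in mrg1 mrg2, 21.5 and 21.6 CPM in pif4, and 9.27 and 13.1 CPM in WT (departure -1.54 ± 0.25, adjusted p = 0.000319). At MBP1 (AT1G52040), a myrosinase-binding protein gene, WT was lowest, with 5.58 and 5.41 CPM in mrg1 mrg2 pif4, 10.5 and 9.43 CPM in mrg1 mrg2, 8.47 and 7.55 CPM in pif4, and 3.87 and 3.18 CPM in WT (departure -2.04 ± 0.31, adjusted p = 0.000186).

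**Figure D2:**
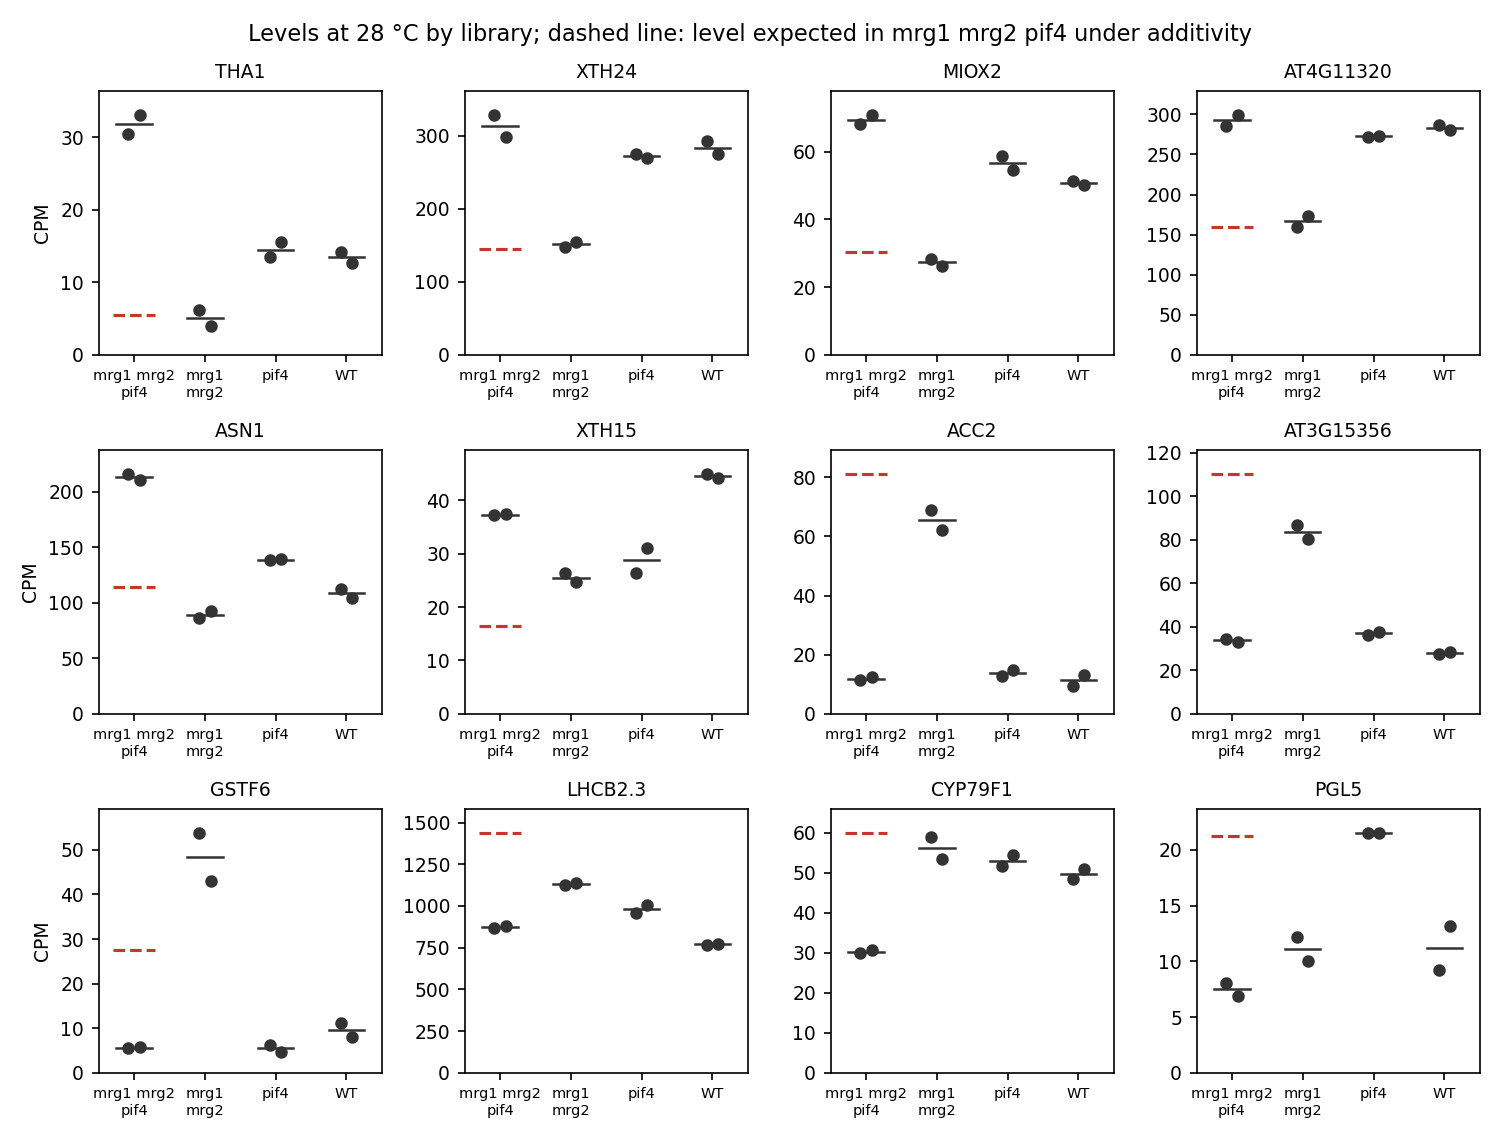
Level at 28 °C (CPM, linear axis from 0) of 12 genes in each library, with 2 points and their mean (bar) for mrg1 mrg2 pif4, mrg1 mrg2, pif4 and WT. The dashed red line is the level expected in mrg1 mrg2 pif4 if the effects were additive in log2. For THA1, XTH24, MIOX2, AT4G11320, ASN1 and XTH15 the triple mutant lies above the line, and for the other 6 genes below it.

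Of the 548 called genes, 21 had fewer than 10 reads in some library and are better read as counts. MRD1 (AT1G53480, mto 1 responding down 1) had 263 and 334 reads in mrg1 mrg2 pif4, 391 and 330 in mrg1 mrg2, 309 and 206 in pif4, and 1 and 0 in WT. The gene was present in every mutant library and at or under the floor of 3 counts in WT, so the fitted departure (adjusted p = 7.88e-16) describes presence in 3 genotypes and no size. At 22 °C it averaged 29.7 CPM in mrg1 mrg2 pif4, 34.0 CPM in mrg1 mrg2, 28.4 CPM in pif4 and 0.0586 CPM in WT, again present in every mutant and nearly absent in WT. As the labels name no alleles or crosses, the named mutations and other differences between the WT line and the mutant lines cannot be told apart at MRD1. Another 3 genes were nearly confined to pif4. CRU3 (AT4G28520), a seed storage cruciferin gene, had 2 and 0 reads in mrg1 mrg2 pif4, 0 and 12 in mrg1 mrg2, 250 and 214 in pif4, and 11 and 11 in WT. AT2G01422, a non-coding RNA gene, had 0 and 1 reads in mrg1 mrg2 pif4, 0 and 11 in mrg1 mrg2, 135 and 83 in pif4, and 5 and 0 in WT. AT1G63540, a hydroxyproline-rich glycoprotein gene, had 1 and 0 reads in mrg1 mrg2 pif4, 0 and 6 in mrg1 mrg2, 50 and 43 in pif4, and 0 and 0 in WT. The calls of CRU3, AT2G01422 and AT1G63540 were lost without mrg1 mrg2 replicate 2 (adjusted p = 0.93, 0.975 and 1), and under DESeq2 without independent filtering (0.293, 0.377 and 0.341). Summed seed markers stood at 11 to 13.8 CPM in mrg1 mrg2 pif4, 5.65 to 10.3 CPM in mrg1 mrg2, 94.3 to 97.1 CPM in pif4, and 14 to 19.9 CPM in WT, of which 8 of 16 were tested and 1 (CRU3) was called, while the seed albumin gene SESA1 was at 0 in all 8 libraries. The part of seed tissue in these counts was not tested.

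The departures were then read over 27 gene lists, each set against the 0.951% of all tested genes above and 1.85% below additivity. Genes for photosynthesis and chlorophyll synthesis stood out by count: 21 of 31 were below additivity, 0 above, and all 31 values were negative with a median of -0.30. The departures were small and even, between -0.45 and -0.05. At 0 of the 31 genes the standard error exceeded the median of 0.209 over all genes tested. Smaller departures can pass the test at such genes than at most others, and the part of this in the count was not tested. LHCB2.1 (AT2G05100), an antenna protein of photosystem II, stood at 2309 and 2304 CPM in mrg1 mrg2 pif4, 2473 and 2713 CPM in mrg1 mrg2, 2612 and 2770 CPM in pif4, and 2194 and 2249 CPM in WT, so that each parental mutant lay above WT and the triple mutant did not add to them. Its departure was -0.45 ± 0.07 (adjusted p = 0.000327). LHCB3 (AT5G54270) and LHCB6 (AT1G15820), further antenna genes, departed by -0.44 ± 0.07 and -0.43 ± 0.07, PSAK (AT1G30380) of photosystem I by -0.42 ± 0.08, RCA (AT2G39730), which encodes rubisco activase, by -0.38 ± 0.07, and GUN5 (AT5G13630), the magnesium chelatase subunit of chlorophyll synthesis, by -0.38 ± 0.07, all called. LHCB2.3 (AT3G27690), which shares reads with its close copies and was not on the list, departed most among antenna genes named here, at -0.72 ± 0.07 (adjusted p = 2.57e-07), with 866 and 879.8 CPM in mrg1 mrg2 pif4, 1123 and 1140 CPM in mrg1 mrg2, 956 and 1006 CPM in pif4, and 768 and 774 CPM in WT. PORB (AT4G27440), a protochlorophyllide reductase gene, departed least in the list, at -0.05 ± 0.07, and was 1 of 10 members not called.

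Within the list the calls for each mutation differed between the backgrounds in which it was measured. With pif4, 18 of 31 members rose in WT (background 0.864%), and 1 rose and 6 fell within mrg1 mrg2 (4.02% and 4.44%). With mrg1 mrg2, 22 of 31 fell within pif4 (5.11%) and 5 rose and 1 fell within WT (5.91% and 6.81%). The list held 10 calls below additivity without mrg1 mrg2 pif4 replicate 1 and 12 without mrg1 mrg2 pif4 replicate 2 or without WT replicate 2. The 4 mesophyll markers read here are all members of this list, so they had to move with it and add no separate evidence. Summed, they stood at 16300 to 16700 CPM in mrg1 mrg2 pif4 and 18500 to 19400 CPM in mrg1 mrg2. In pif4 the sum was 19300 to 20100 CPM, and in WT 17800 to 17900 CPM. All 4 markers were below additivity and are already counted among the calls of the list. In RNA from whole seedlings fewer cells of a type and less RNA per cell cannot be told apart.

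Transcripts of the plastid genome, which encodes core subunits of the same complexes, leaned the same way. Of 93 tested, 13 were below additivity and 0 above, with a median of -0.30, and 83 values were negative. DESeq2 called 6, with or without its independent filtering, and limma voom 13. ATCG00790 stood at 179 and 173 CPM in mrg1 mrg2 pif4, 221 and 234 CPM in mrg1 mrg2, 243 and 259 CPM in pif4, and 193 and 176 CPM in WT (departure -0.82 ± 0.09, adjusted p = 1.81e-06). The share of reads on the plastid genome differed with the replicate number, from 1.68% to 2.33% in the libraries numbered 1 and from 2.59% to 3.21% in those numbered 2. With the replicate number as a term in the fit, a replicate block, 28 of the 93 were called below additivity. Of 31 mitochondrial transcripts tested, 0 were called by edgeR in either direction.

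Genes induced by sugar shortage leaned the other way. Of 15 tested, 6 were above additivity and 0 below, and all 15 values were positive with a median of 0.33. The standard error exceeded the median over all genes tested at 2 of the 15. ASN1 (AT3G47340), asparagine synthetase, a marker of carbon starvation, stood at 216 and 210.2 CPM in mrg1 mrg2 pif4, 86.5 and 92.3 CPM in mrg1 mrg2, 139 and 139 CPM in pif4, and 113 and 104 CPM in WT. All 4 groups were apart, with the double mutant below WT and the triple mutant highest, and the departure was 0.90 ± 0.09 (adjusted p = 9.47e-07). The 5 other members called were BCAT-2 (AT1G10070) at 2.04 ± 0.31, BT2 (AT3G48360) at 0.54 ± 0.09, DYL1 (AT1G28330) at 0.42 ± 0.08, MCCA (AT1G03090) at 0.44 ± 0.11 and DIN10 (AT5G20250) at 0.33 ± 0.07. BCAT-2 and MCCA act in the breakdown of branched-chain amino acids, DIN10 is a raffinose synthase family gene, and BT2 and DYL1 are sugar-repressed genes. With pif4, 9 of 15 members rose within mrg1 mrg2 (4.02% of all genes), and with mrg1 mrg2, 9 of 15 fell within WT (6.81%). The list held 4 calls without WT replicate 2 and without either mrg1 mrg2 pif4 library. DIN10 was lost in those 3 fits (adjusted p up to 0.0719), and MCCA in them and without mrg1 mrg2 replicate 1 or pif4 replicate 2 (up to 0.121).

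**Figure D3:**
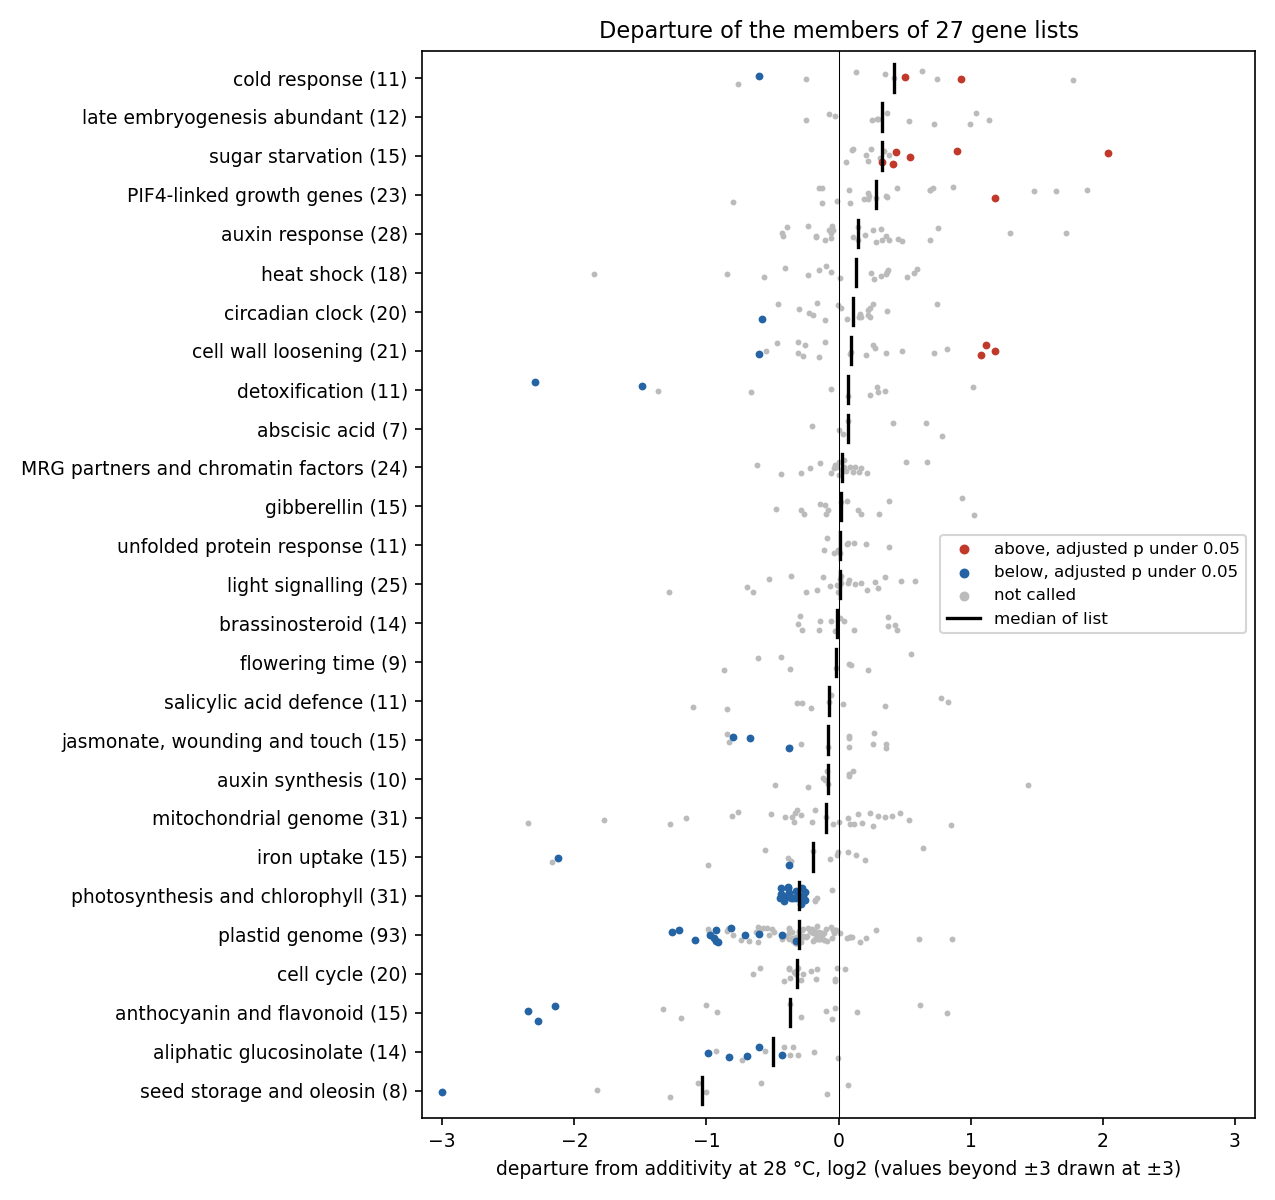
Departure from additivity at 28 °C (log2) of every tested member of 27 gene lists, with called members in red (above) or blue (below), others in grey and the list median as a black bar; numbers tested are in brackets. Photosynthesis members cluster near -0.30, aliphatic glucosinolate members reach -0.99, and sugar starvation members all lie right of 0.

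Aliphatic glucosinolates are methionine-derived defence compounds of Brassicales, made by chain elongation and then core synthesis. Of 14 genes of that route, 5 were below additivity and 0 above, and all 14 values were negative (median -0.49). CYP79F1 (AT1G16410), which opens the core pathway, stood at 29.9 and 30.7 CPM in mrg1 mrg2 pif4, 59.0 and 53.5 CPM in mrg1 mrg2, 51.6 and 54.4 CPM in pif4, and 48.3 and 51.0 CPM in WT. Only the triple mutant was low, and the departure was -0.99 ± 0.12 (adjusted p = 1.3e-05). CYP79F2 is a near-identical neighbour whose reads may be shared with it. The chain elongation genes BCAT4 (AT3G19710) and MAM1 (AT5G23010) departed by -0.83 ± 0.11 and -0.60 ± 0.09, and CYP83A1 (AT4G13770), the next core enzyme, by -0.70 ± 0.10. IMD1 (AT5G14200), an isopropylmalate dehydrogenase of chain elongation, departed by -0.43 ± 0.11 (adjusted p = 0.0234), a call lost without WT, mrg1 mrg2 or pif4 replicate 1 and without either mrg1 mrg2 pif4 library (up to 0.113). Within mrg1 mrg2, 12 of 14 members fell with pif4 (4.44% of all genes), while within WT edgeR, DESeq2 without independent filtering and limma voom each called 0 of 14 with pif4, 4 having an unadjusted p under 0.05 in edgeR.

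Smaller groups of enzymes were also below additivity. In the anthocyanin and flavonoid list, 3 of 15 were below: DFR (AT5G42800) and LDOX (AT4G22880), late anthocyanin enzymes, and GSTF12 (AT5G17220), which carries the pigment to the vacuole. DFR stood at 1.93 and 1.92 CPM in mrg1 mrg2 pif4, 5.48 and 5.91 CPM in mrg1 mrg2, 3.37 and 4.39 CPM in pif4, and 2.35 and 2.02 CPM in WT (departure -2.35 ± 0.44, adjusted p = 0.002), and LDOX departed by -2.14 ± 0.43 (adjusted p = 0.00361). GSTF12, at -2.27 ± 0.63 (adjusted p = 0.0472), was lost when any library but WT replicate 1 was left out (up to 0.213). DESeq2's independent filtering gave none of these 3 an adjusted p, and without that filtering DFR and LDOX were called (0.0105 and 0.0199) and GSTF12 was not (0.202). In the jasmonate, wounding and touch list 3 of 15 were below, and all 3 encode enzymes of jasmonate synthesis in the plastid. LOX2 (AT3G45140) stood at 41.4 and 45.4 CPM in mrg1 mrg2 pif4, 105 and 95.1 CPM in mrg1 mrg2, 61.3 and 70.2 CPM in pif4, and 86.2 and 87.9 CPM in WT (departure -0.80 ± 0.12, adjusted p = 0.000105). AOC2 (AT3G25770) departed by -0.67 ± 0.12 (adjusted p = 0.000903) and AOS (AT5G42650) by -0.38 ± 0.09 (0.0202). The AOS call was lost without WT, pif4 or mrg1 mrg2 pif4 replicate 1 and without mrg1 mrg2 or pif4 replicate 2 (up to 0.151). In the detoxification list, GSTF6 and GSTF7 were the 2 of 11 below, and reads of these near-identical neighbours may be shared.

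In the cell wall loosening list 3 of 21 were above and 1 below. The 3 were the xyloglucan endotransglucosylase genes XTH24, XTH15 and XTH17 (AT1G65310), and XTH17 stood at 16.6 and 16.6 CPM in mrg1 mrg2 pif4, 9.61 and 12.04 CPM in mrg1 mrg2, 15.6 and 14.4 CPM in pif4, and 22.9 and 18.1 CPM in WT (departure 1.07 ± 0.21, adjusted p = 0.00362). The expansin gene EXPA4 (AT2G39700) was below, at -0.60 ± 0.13. In the cold response list the dehydrin genes COR47 (AT1G20440) and LTI30 (AT3G50970) were above, at 0.50 ± 0.08 and 0.93 ± 0.20, and COR413IM1 (AT1G29395), of the inner chloroplast envelope, was below at -0.60 ± 0.16, as 3 of 11. In the iron uptake list the root iron transporter IRT1 (AT4G19690) and the ferritin gene FER1 (AT5G01600) were below, at -2.12 ± 0.57 and -0.38 ± 0.09, as 2 of 15. LHY (AT1G01060), a morning gene of the circadian clock, was the 1 of 20 clock genes called, at -0.58 ± 0.12 (adjusted p = 0.00482), with 34.5 and 35.8 CPM in mrg1 mrg2 pif4, 50.8 and 52.6 CPM in mrg1 mrg2, 52.5 and 53.6 CPM in pif4, and 52.2 and 51.8 CPM in WT. Single libraries decide some of these calls. EXPA4 was not called without mrg1 mrg2 replicate 2, pif4 replicate 1 or mrg1 mrg2 pif4 replicate 1 (adjusted p up to 0.0773), LTI30 without mrg1 mrg2 pif4 replicate 1 (0.0611), and FER1 without WT replicate 1, pif4 replicate 1 or either mrg1 mrg2 pif4 library (up to 0.103). COR413IM1 was called only when no library or pif4 replicate 1 was left out, and IRT1 in 2 of 8 such fits.

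The genes best known as PIF4 outputs in warmth mostly showed no called departure. Of 23 PIF4-linked growth genes, 1 was above additivity (XTH15), 0 were below, and the median was 0.29. The values leaned above additivity, with 18 positive and 5 negative, and ran from -0.80 to 1.88. IAA29 (AT4G32280), an auxin-induced repressor gene, stood at 1.14 and 1.13 CPM in mrg1 mrg2 pif4, 5.31 and 3.98 CPM in mrg1 mrg2, 1.12 and 0.824 CPM in pif4, and 5.63 and 4.91 CPM in WT, low in every pif4 library whichever MRG genotype it had. Its departure was 0.36 ± 0.56 (adjusted p = 0.839). HFR1 (AT1G02340), a shade-response gene, likewise stood at 4.78 and 4.97 CPM in mrg1 mrg2 pif4, 11.5 and 9.20 CPM in mrg1 mrg2, 2.86 and 3.43 CPM in pif4, and 9.27 and 7.80 CPM in WT, with a departure of 0.37 ± 0.33. The homeobox gene HB-2 (AT4G16780), also known as ATHB2, departed by 0.86 ± 0.26 (adjusted p = 0.077), IAA19 (AT3G15540) by 0.69 ± 0.41 and the auxin synthesis gene YUC8 (AT4G28720) by 0.08 ± 0.43. With pif4, 7 of the 23 fell within WT (0.348% of all genes) and 4 fell within mrg1 mrg2 (4.44%). The count of 7 was 6 with limma voom and 4 with DESeq2 without independent filtering, and with that filtering DESeq2 gave none of the 23 an adjusted p. At 17 of the 23 genes the standard error of the departure exceeded the median of 0.209 over all genes tested.

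In 13 further lists besides the mitochondrial one, edgeR called 0 members: heat shock (18 tested), auxin response (28), auxin synthesis (10), gibberellin (15), light signalling (25), brassinosteroid (14), unfolded protein response (11), late embryogenesis abundant (12), abscisic acid (7), salicylic acid defence (11), cell cycle (20), flowering time (9) and MRG partners and chromatin factors (24). DESeq2 without independent filtering and limma voom called 0 members of these 14 lists as well. Of their 235 tested genes, 36 had an unadjusted p under 0.05 in edgeR, against 14.6% of all genes tested, among them 7 of the 18 heat shock genes, 6 of the 25 light signalling genes and 1 of the 31 mitochondrial transcripts. The cell cycle list leaned below additivity without a call, with 19 of 20 values negative and a median of -0.32. At 22 °C, 16 of its 20 genes were called below additivity, with a median of -0.86, against 7.96% of all genes.

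At 22 °C, in other libraries, many more departures were called: 2845 of 19718 genes (14.4%). DESeq2 called 1509 there. Replicates differed more at 28 °C, where the chi-square between the libraries of a group averaged 6.79 to 8.51 per gene, against 1.77 to 4 at 22 °C, with medians over genes of 0.903 to 1.07 against 0.732 to 0.768, and the part of this spread in the counts of calls was not tested. Of the genes above additivity at 28 °C and tested at 22 °C, 174 of 184 (94.6%) had the same sign at 22 °C, as did 304 of 361 (84.2%) of those below, against 60.5% of all genes tested at both temperatures. Calls of the same sign at both temperatures numbered 349, which is 63.7% of the 28 °C list and 12.3% of the 22 °C list. ACC2 departed by -2.63 at 22 °C (adjusted p = 8.5e-14), XTH24 by 1.16 (4.5e-12) and THA1 by 2.72 (1.1e-06), close to their values at 28 °C. In the photosynthesis list 30 of 31 were below additivity at 22 °C (7.96% of all genes), and in the sugar starvation list 10 of 15 were above (6.47%).

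The departure itself differed between temperatures at 313 of 20075 genes (1.56%), with a lower value at 28 °C for 228 (1.14%) and a higher one for 85 (0.423%). Among the genes called at 28 °C, 14 above and 64 below additivity had such a difference, and 17 below additivity at 28 °C were called above it at 22 °C. Of the aliphatic glucosinolate genes, 7 of 14 were above additivity at 22 °C (6.47% of all genes) and 0 below (7.96%), and the difference was called for 8, all lower at 28 °C. CYP79F1, BCAT4, MAM1 and IMD1 were called above additivity at 22 °C and below it at 28 °C. At 22 °C CYP79F1 averaged 79.5 CPM in mrg1 mrg2 pif4, 102 CPM in mrg1 mrg2, 81.3 CPM in pif4 and 135 CPM in WT, so that WT was highest and the departure 0.38 (adjusted p = 0.0029). The difference between its departures was -1.38 (adjusted p = 8.3e-08). AT3G15356 averaged 84.8 CPM in mrg1 mrg2 pif4, 76.2 CPM in mrg1 mrg2, 62.3 CPM in pif4 and 52.0 CPM in WT at 22 °C, close to additive there, and its departure was lower at 28 °C by 1.62 (adjusted p = 3e-08). FER1 was above additivity at 22 °C (0.64) and below it at 28 °C.

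At another 3 genes the departure was called at 22 °C and not at 28 °C, and WT had the highest mean at 22 °C. AT4G01870, a tolB-like protein gene, averaged 25.5 CPM in mrg1 mrg2 pif4, 24.8 CPM in mrg1 mrg2, 17.38 CPM in pif4 and 113.5 CPM in WT at 22 °C, and departed by 2.75 there and by 0.07 ± 0.23 at 28 °C. AIR1 (AT4G12550), an auxin-induced root gene, averaged 52.3 CPM in mrg1 mrg2 pif4, 23.8 CPM in mrg1 mrg2, 37.9 CPM in pif4 and 94.9 CPM in WT at 22 °C, and departed by 2.46 there and by 0.47 ± 0.14 at 28 °C. AT3G54580, an extensin-like gene, averaged 99.6 CPM in mrg1 mrg2 pif4, 52.6 CPM in mrg1 mrg2, 105 CPM in pif4 and 171.5 CPM in WT, and departed by 1.63 and by 0.21 ± 0.11 at the 2 temperatures. For all 3 the difference was called (adjusted p = 1.6e-08, 2.6e-09 and 4.6e-08). The count of 313 fell to 200 without pif4 at 22 °C replicate 2.

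**Figure D4:**
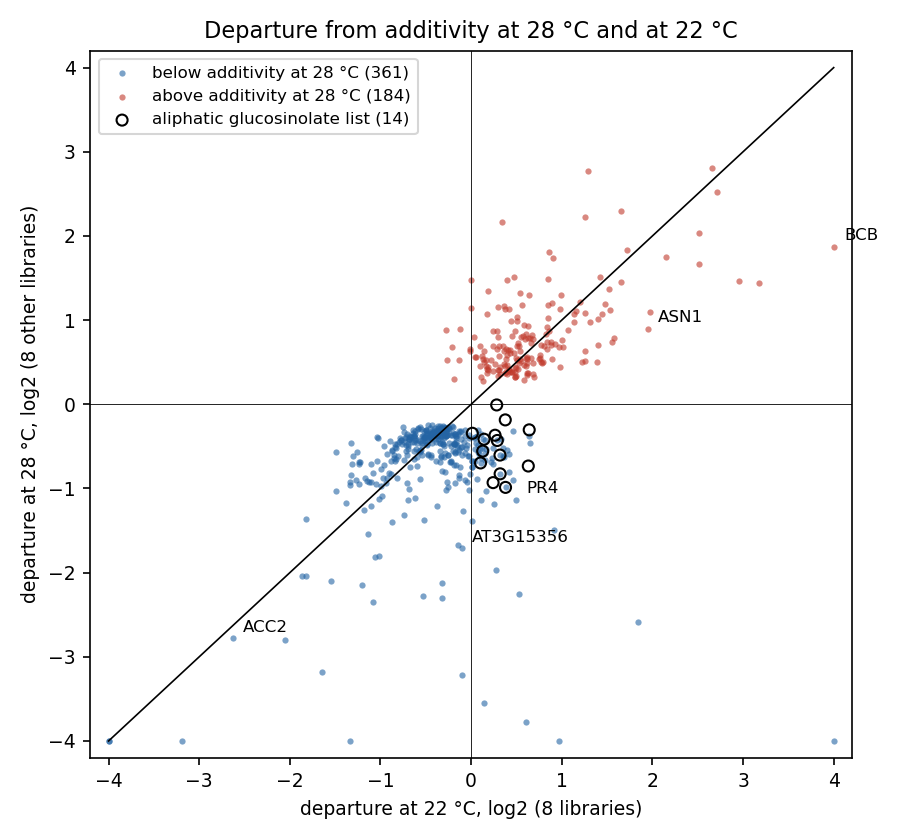
Departure from additivity (log2) at 28 °C (vertical) against 22 °C (horizontal) for the 184 genes above (red) and 361 below (blue) additivity at 28 °C that were tested at both temperatures, with the 14 aliphatic glucosinolate genes circled. Most points lie in the quadrants of equal sign, the circled genes lie right of 0 and at or below 0, and 7 genes beyond ±4 are drawn at the edge.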

How the data were processed

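The deposited table holds whole-number counts of reads per gene for 16 libraries, not normalized by the authors. Per the submitters' processing notes, cutadapt, HISAT2, SAMtools and featureCounts were used with build TAIR10; no source used here gives their versions, options or strand setting. Per the labels' protocols, libraries were made with a stranded mRNA kit.

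Tests on the 8 libraries at 28 °C used edgeR 4.0.16 (R 4.3.3): filterByExpr (min.count 10, min.total.count 15), TMM normalization, and the two-sided quasi-likelihood F-test on 4 groups without a replicate term (4 residual and 22.4 prior degrees of freedom, common biological coefficient of variation 6.47%), with Benjamini-Hochberg adjustment over all genes tested and a threshold of 0.05. The departure at 22 °C was fitted on the 8 libraries at 22 °C, and the difference between temperatures on all 16. Levels are CPM on TMM-scaled library sizes within a temperature, and floors cover counting error only. The script was tested on simulated data. Replicates of every group differed by more than counting noise.

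Deviations from group means of same-numbered libraries correlated weakly and positively, by 0.0086 to 0.076 over 12 pairs of groups. The labels name no block, and whether replicate numbers mark a shared batch was not tested. In the 4 genotypes at 28 °C, the ribosomal RNA gene AT3G41768 took 4.88% to 5.96% of counts in the libraries numbered 1 and 8.5% to 9.18% in those numbered 2. Alternatives were a fit of all 16 libraries, a replicate block, DESeq2 (1.42.0) size factors, no filter, min.count 50, the DESeq2 Wald test (also without its independent filtering, which left 9479 of 19556 departures without an adjusted p; added after seeing the data), limma (3.58.1) voom, removal of that gene and of each library.

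Gene lists and members were chosen with earlier results of these data known. Named genes were the mutated genes, the 12 largest departures per direction (at least 5 CPM in the highest group and 10 reads in every library), the 8 smallest p per direction, 5 genes of few reads per direction, the 5 smallest p of the temperature difference and up to 5 members of each list; the text names a part of these. MCCA, PSAK, GUN5, PORB, CYP79F2 and the PIF4-linked genes other than XTH15 and HB-2 outside that rule were named as examples, with their values known. Symbols, products and promoters come from RefSeq TAIR10.1, in which 32835 of 33602 IDs had a nuclear entry. Only genes of the nuclear genome were given names.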

Additional observations from a re-analysis of the deposited data

Results flagged for a closer look

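The departure from additivity differed between 28 °C and 22 °C at 313 genes, by the test of the difference in a fit of all 16 libraries, and the genes given here are those named in the text that passed it. All values are the log2 departure at 28 °C minus that at 22 °C. It was lower at 28 °C for the glucosinolate genes CYP79F1 (-1.38), BCAT4 (-1.16), CYP79F2 (-0.95), MAM1 (-0.93), CYP83A1 (-0.81) and IMD1 (-0.73). It was lower for the glutathione transferase genes GSTF7 (-2.43), GSTF6 (-1.99) and GSTU20 (-0.77), for the defence and lectin genes PR4 (-1.64) and AT3G15356 (-1.62), for FER1 (-1.02), LHY (-0.74) and AOC2 (-0.72). Among genes above additivity at 28 °C it was lower there for BCB (-3.55), ASN1 (-1.05) and DIN10 (-0.38), which lay further above additivity at 22 °C. It was lower for AT4G01870 (-2.69), AIR1 (-1.99) and AT3G54580 (-1.43), at which no departure was called at 28 °C. The fitted difference for CRU3 (-12.29) rests on a few reads outside pif4 and has no interpretable size. The departure was higher at 28 °C for CSD2 (1.06) and PORB (0.66).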

How the results depend on the processing

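Of 1344 values of single named genes under the alternatives, 1279 kept their call, 64 lost it and 1 (AIR1 in the fit of all 16 libraries, adjusted p = 0.0255) gained it, and none turned its sign with a call. Leaving out a library gave 52 of the 64 losses. The others were COR413IM1 under limma voom, IMD1 and COR413IM1 under DESeq2, and these 2 with GSTF12, CRU3, AT2G01422, AT1G63540, MCCA, LTI30 and IRT1 under DESeq2 without independent filtering, an alternative chosen after seeing the data. With that filtering DESeq2 gave 9479 genes no adjusted p for the departure, 76 of them called by edgeR, and such genes are not counted among the losses. Of 143 counts under alternatives, 106 were within 1.5 times the reported count. The DESeq2 Wald test called fewer genes: 102 above additivity, 962 for pif4 within mrg1 mrg2, 860 for mrg1 mrg2 within pif4, 1338 for mrg1 mrg2 within WT, 1509 for the departure at 22 °C and 197 for the difference between temperatures. Without independent filtering it called 93 above and 223 below additivity, 943 for pif4 within mrg1 mrg2, 151 for pif4 within WT, 840 for mrg1 mrg2 within pif4, 1318 for mrg1 mrg2 within WT, 1485 for the departure at 22 °C and 187 for the difference. The cause was not tested.

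Leaving out each library in turn gave 92 to 142 genes above and 170 to 352 below additivity, 761 to 1704 for pif4 within mrg1 mrg2, 103 to 299 for pif4 within WT, 741 to 1657 for mrg1 mrg2 within pif4, 1299 to 2526 for mrg1 mrg2 within WT, 2100 to 2498 for the departure at 22 °C and 200 to 284 for the difference. A lone library is there assumed to vary like the other groups. With a replicate block, 250 genes were above and 503 below additivity, and 409 differed between temperatures. As it is not known whether the replicate numbers mark a shared batch, these larger counts are not taken as support. In the list counts, a minimum of 50 counts left 1 anthocyanin call and DESeq2 left 6 plastid calls and 0 of the 6 anthocyanin genes to which it gave an adjusted p, and these list counts were chosen after seeing the data. Genes near the floor of 3 counts, 0.264 to 0.417 CPM, have no interpretable size of departure.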

Other observations

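Many genes of the proteasome, which degrades ubiquitin-tagged proteins, were below additivity. The set was taken by RefSeq product name after its values were seen, so its count is a description, and it also holds assembly, maturation and activator proteins and subunits of the COP9 signalosome. Of 53 tested genes, 22 were below additivity at 28 °C and 0 above, against 1.85% and 0.951% of all genes tested, with a median of -0.39, and 49 values were negative. The standard error exceeded the median over all genes tested at 5 of the 53. With mrg1 mrg2 within WT 32 of the 53 rose (5.91% of all genes), and with pif4 within mrg1 mrg2 31 fell (4.44%), while edgeR, DESeq2 without independent filtering and limma voom each called 0 with pif4 within WT, 2 having an unadjusted p under 0.05 in edgeR. PAD1 (AT3G51260), a subunit of the core particle, stood at 69.6 and 68.6 CPM in mrg1 mrg2 pif4, 122 and 125 CPM in mrg1 mrg2, 73.7 and 72.2 CPM in pif4, and 71.2 and 67.9 CPM in WT, so that only the double mutant was high. Its departure was -0.90 ± 0.10 (adjusted p = 2.77e-06, edgeR's quasi-likelihood test with Benjamini-Hochberg adjustment). The core subunit gene PBB2 (AT5G40580) departed by -1.17 ± 0.14, PAA2 (AT2G05840) by -0.94 ± 0.12, PBG1 (AT1G56450) by -0.68 ± 0.11 and PAG1 (AT2G27020) by -0.67 ± 0.11, all called. In the regulatory particle RPT2a (AT4G29040) departed by -0.67 ± 0.10, and RPT6A (AT5G19990) by -0.12 ± 0.11 (adjusted p = 0.677). AT5G20000, a near-identical neighbour of RPT6A that is outside the 53 genes by its product name, departed by -1.36 ± 0.15, and reads of this pair may be shared. AtCDC48B (AT3G53230), a CDC48-type ATPase gene, departed by -1.03 ± 0.15. NAC103 (AT5G64060), a transcription factor gene of the NAC family, had 6 and 9 reads in mrg1 mrg2 pif4, 90 and 55 in mrg1 mrg2, 9 and 5 in pif4, and 8 and 5 in WT. Its departure was -3.17 ± 0.73 (adjusted p = 0.0123), a call lost without pif4 replicate 1 (0.186). At 22 °C, 37 of the 53 genes were below additivity (7.96% of all genes) and 0 above. The count at 28 °C was 11 without mrg1 mrg2 pif4 replicate 2 and 16 to 19 without any other library.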
